A study of Mus musculus with 9 samples.

Results

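The circular RNAs (circRNAs) of 6 mouse genes for glutathione synthesis, endoplasmic reticulum stress and inflammation were followed in liver after an acetaminophen (APAP) overdose. The genes were Gclc, Atf6, Ern1, Il6st, Nfkb1 and Crp. Every circRNA that the deposited table assigns to 1 of these host genes was taken, whatever its level, which gave 28 of 11312 circRNAs and 6 of 3929 hosts. Of the 28, 4 came from Gclc, 11 from Atf6, 6 from Ern1, 2 from Il6st, 1 from Nfkb1 and 4 from Crp. All mice were wild-type C57 BL6, 8 weeks old and about 20 g in weight, and livers were collected 6 hours after APAP, with controls labelled for the same time. The dmPGE2+APAP group received 300 µg/kg dmPGE2, an analogue of prostaglandin E2, and 1 hour later 500 mg/kg APAP, both by intraperitoneal injection. The APAP group received 500 mg/kg APAP alone, and the control group received saline. Each group had 3 libraries. The control columns carry a code that the labels do not explain and were taken as the saline group by elimination, which bears on every comparison with control. No label ties a library to an animal, and the p-values rest on the spread among libraries of a group, which may be technical.

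A circRNA is a closed RNA ring that forms when a downstream splice donor joins an upstream splice acceptor, a step called back-splicing, and reads across that junction count the ring. Glutathione binds the reactive product of APAP in hepatocytes, and Gclc encodes the catalytic subunit of the enzyme that starts glutathione synthesis. Atf6 and Ern1 (the gene of IRE1α) encode sensors in the membrane of the endoplasmic reticulum that respond to unfolded protein. Il6st encodes gp130, the signalling subunit shared by receptors of the IL6 family, Nfkb1 encodes the p105 precursor of the NF-kB subunit p50, and Crp encodes C-reactive protein, a plasma protein that hepatocytes secrete.

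Of the 24 rings outside Crp, 23 joined annotated exon edges at both ends. The following junction sequences are shown because they separate rings that share a splice site and because each is the only part of a ring that its linear transcript lacks. They were built from the GENCODE M21 transcripts (GRCm38), 20 bases on each side of the junction, read 5′ to 3′. Lower case marks the end of the donor exon and capitals mark the start of the acceptor exon.
Gclc exons 2 to 4, novel_circ_0014789: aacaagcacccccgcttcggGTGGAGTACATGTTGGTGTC
Gclc exons 2 to 3, novel_circ_0014788: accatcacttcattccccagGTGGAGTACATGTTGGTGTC
Atf6 exons 8 to 14, novel_circ_0006966: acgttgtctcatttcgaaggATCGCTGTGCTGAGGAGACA
Atf6 exons 8 to 9, novel_circ_0006970: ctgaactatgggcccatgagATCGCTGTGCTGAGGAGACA
Atf6 exons 10 to 14, novel_circ_0006965: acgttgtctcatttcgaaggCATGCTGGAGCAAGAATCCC
Atf6 exons 8 to 10, novel_circ_0006969: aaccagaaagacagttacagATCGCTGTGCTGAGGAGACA
Ern1 exons 7 to 8, novel_circ_0000751: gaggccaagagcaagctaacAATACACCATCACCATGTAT
Ern1 exons 10 to 13, novel_circ_0000747: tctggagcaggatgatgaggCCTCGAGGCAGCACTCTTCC
Il6st exons 6 to 8, novel_circ_0002520: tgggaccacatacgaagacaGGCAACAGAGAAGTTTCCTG

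The 2 Gclc junctions carry the same capitals, since both rings begin at exon 2 and differ in the exon that closes them. Among the 4 Atf6 junctions, 3 carry the capitals of exon 8, and 2 share the lower-case end of exon 14. Ring boundaries lay at chr9:77775079-77779635 on the plus strand for the Gclc exons 2 to 4 ring, at chr1:170787346-170819432 on the minus strand for the Atf6 exons 8 to 14 ring, at chr11:106421706-106423488 on the minus strand for the Ern1 exons 7 to 8 ring and at chr13:112487709-112490642 on the plus strand for the Il6st exons 6 to 8 ring. All sequence printed is coding exon. Ring names give the exons spanned. Of these the submitters list 4 of 7 (461 of 807 bases) for the Atf6 exons 8 to 14 ring and 4 of 5 for the Atf6 exons 10 to 14 ring. For the Ern1 exons 10 to 13 ring they list 2 of 4 (434 of 745 bases). For the other rings with a printed sequence they list every exon spanned.

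Back-splice reads per library numbered 120531, 99102 and 114791 in dmPGE2+APAP livers, 108667, 109453 and 69268 in APAP livers and 154449, 129971 and 4362 in control livers. The median of the other libraries was 25.7 times the total of control 3, so 2 reads there, the smallest count above 0 recorded in any library, made 458.5 CPM (reads per 1000000 back-splice reads of the library). Differences from control are therefore given with and without control 3. The 28 rings held 0.53% to 0.604% of the reads in dmPGE2+APAP livers, 0.487% to 0.545% in APAP livers, 0.485% and 0.502% in controls 1 and 2, and 0.275% (12 reads) in control 3. Hepatocyte markers had rings for 10 of 11 genes (Ttr was at 0), with a summed level of 8738 to 9417 CPM in dmPGE2+APAP livers, 6948 to 7985 CPM in APAP livers, 9000 and 9325 CPM in controls 1 and 2, and 26823 CPM in control 3. Kupffer cell and macrophage markers had rings for 2 of 9 genes, with Clec4f and Csf1r among those at 0, and summed to 1983 to 2149 CPM in dmPGE2+APAP livers, 736 to 2595 CPM in APAP livers and 1923 and 2039 CPM in controls 1 and 2. Sinusoidal endothelial markers (5 of 8 genes, Lyve1 and Kdr at 0) summed to 375 to 498 CPM in dmPGE2+APAP livers, 289 to 515 CPM in APAP livers and 592 and 764 CPM in controls 1 and 2. The Kupffer cell and the endothelial sum were each 917 CPM in control 3. Neutrophil and lymphocyte markers had rings for 1 of 8 genes, cholangiocyte markers for 1 of 6 and stellate cell markers for 0 of 7. In bulk liver, fewer cells of a type and less RNA per cell cannot be told apart.

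The 6 hosts spanned a wide range of levels, from Nfkb1 (rank 103 of the hosts by mean CPM) and Crp (rank 165) through Gclc (272), Atf6 (347) and Ern1 (503) to Il6st (977). A ring is counted at its junction alone, so these CPM carry no length term, although a host with several rings is counted at several junctions. None of the 6 host sums passed edgeR's quasi-likelihood test in any comparison at an adjusted p of 0.05, and neither did any of the 14 rings that had at least 5 reads in at least 3 libraries. The share of all 2358 tested hosts that passed was itself low, at 0.339% for APAP against control, 0.127% for dmPGE2+APAP against APAP and 0.17% for dmPGE2+APAP against control. The shares of the 4331 tested circRNAs were 0.139%, 0.0693% and 0.115% in the same order. Without control 3 the counts were again 0, against 0.212%, 0.17% and 0.127% of hosts and 0.231%, 0.0693% and 0.0924% of circRNAs. DESeq2 and limma-voom also called 0 of the 6 hosts and 0 of the 14 rings. For APAP against control, DESeq2 gave no adjusted p for novel_circ_0006963, novel_circ_0006964, novel_circ_0006971 and novel_circ_0006987, so these could not be called there. Their unadjusted p in DESeq2 was 0.251 or more. An unadjusted p under 0.05 in edgeR was reached by 1 host for APAP against control (Il6st), 0 for dmPGE2+APAP against APAP and 1 for dmPGE2+APAP against control (Atf6), against 5.34%, 2.71% and 4.24% of all hosts. Among the rings it was reached by 1, 0 and 0, against 5.06%, 3.74% and 4.34%. In DESeq2 the counts were 2, 0 and 0 hosts and 2, 1 and 0 rings, and in limma-voom 1, 0 and 0 hosts and 1, 0 and 0 rings.

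**Figure D1:**
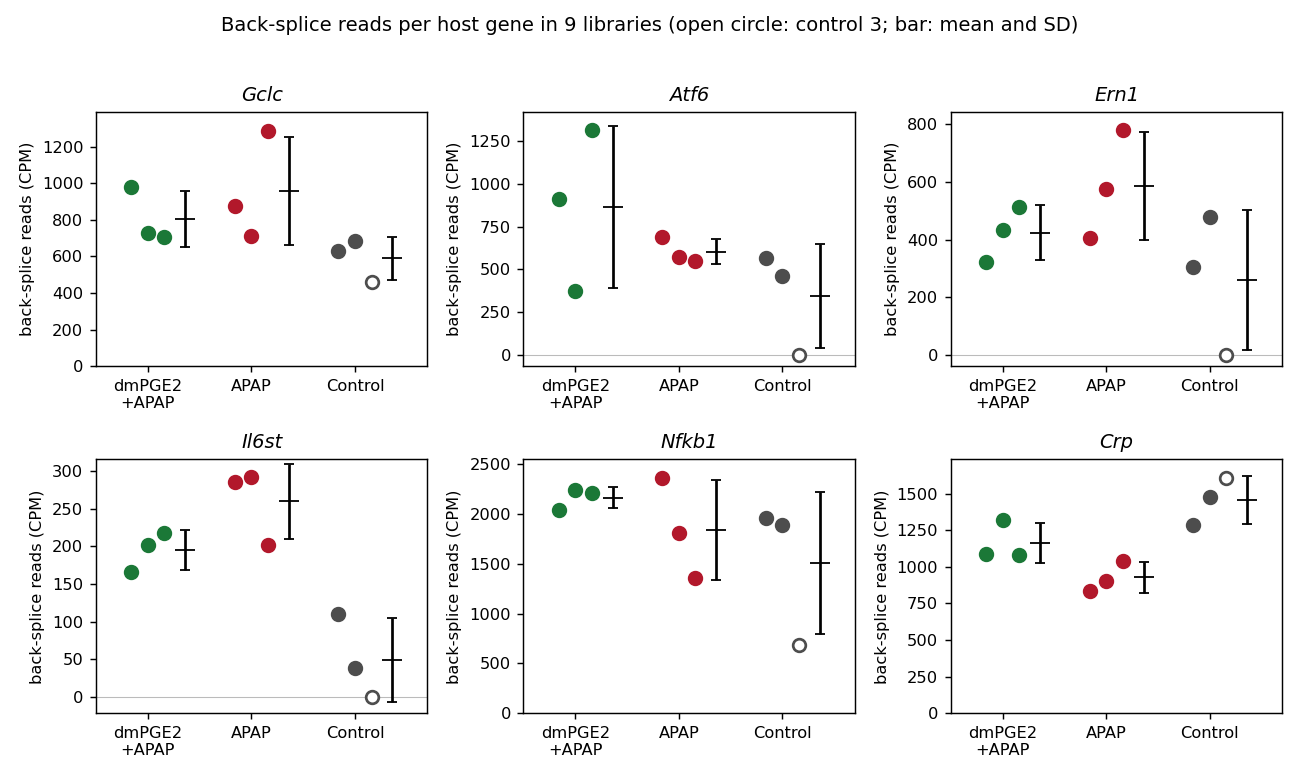
Back-splice reads summed per host gene, in CPM, for each of 9 libraries, with dmPGE2+APAP left, APAP in the middle and control right, and the mean with its SD beside the points. Open circles are control 3, where 2 reads make 458.5 CPM. Il6st is at or above 165.9 CPM in the 6 livers given APAP and at or below 110.1 CPM in the controls, and Crp is lowest in the APAP group.

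For glutathione synthesis, Gclc gave 118, 72 and 81 back-splice reads in dmPGE2+APAP livers, 95, 78 and 89 in APAP livers and 97, 89 and 2 in control livers. On the CPM scale this was 804 ± 152 in dmPGE2+APAP livers, 957 ± 295 in APAP livers and 590 ± 118 in control livers (SD, n = 3 each), or 656 ± 40.1 in controls 1 and 2. Every APAP library (712.6 to 1285 CPM) and every dmPGE2+APAP library (705.6 to 979 CPM) lay above every control library (458.5 to 684.8 CPM). The fitted log2 difference was 0.62 ± 0.41 (SE) for APAP against control, with an edgeR adjusted p of 0.982, and 0.47 ± 0.31 without control 3. It was −0.21 ± 0.39 for dmPGE2+APAP against APAP (edgeR adjusted p = 1.00) and 0.41 ± 0.41 for dmPGE2+APAP against control, or 0.26 ± 0.31 without control 3 (edgeR adjusted p = 1.00).

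The ring of Gclc exons 2 to 4 made up 95.7% of the gene's reads and was the only ring of the 28, besides those of Nfkb1 and Crp novel_circ_0006986, with reads in all 9 libraries. Its exons sum to 410 bases, all coding. The shorter ring of exons 2 to 3 had 13, 7 and 4 reads in dmPGE2+APAP livers and was listed at 0 in every APAP and control library. That pattern was shown by 29 of all 11312 circRNAs (0.256%), and by 1 of the 28 here. The exons 2 to 3 ring had too few reads for the test, so no fold is given. The remaining Gclc rings were seen in 1 library each, exons 2 to 6 with 2 reads in dmPGE2+APAP 1 and exons 3 to 6 with 5 reads in control 1.

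**Figure D2:**
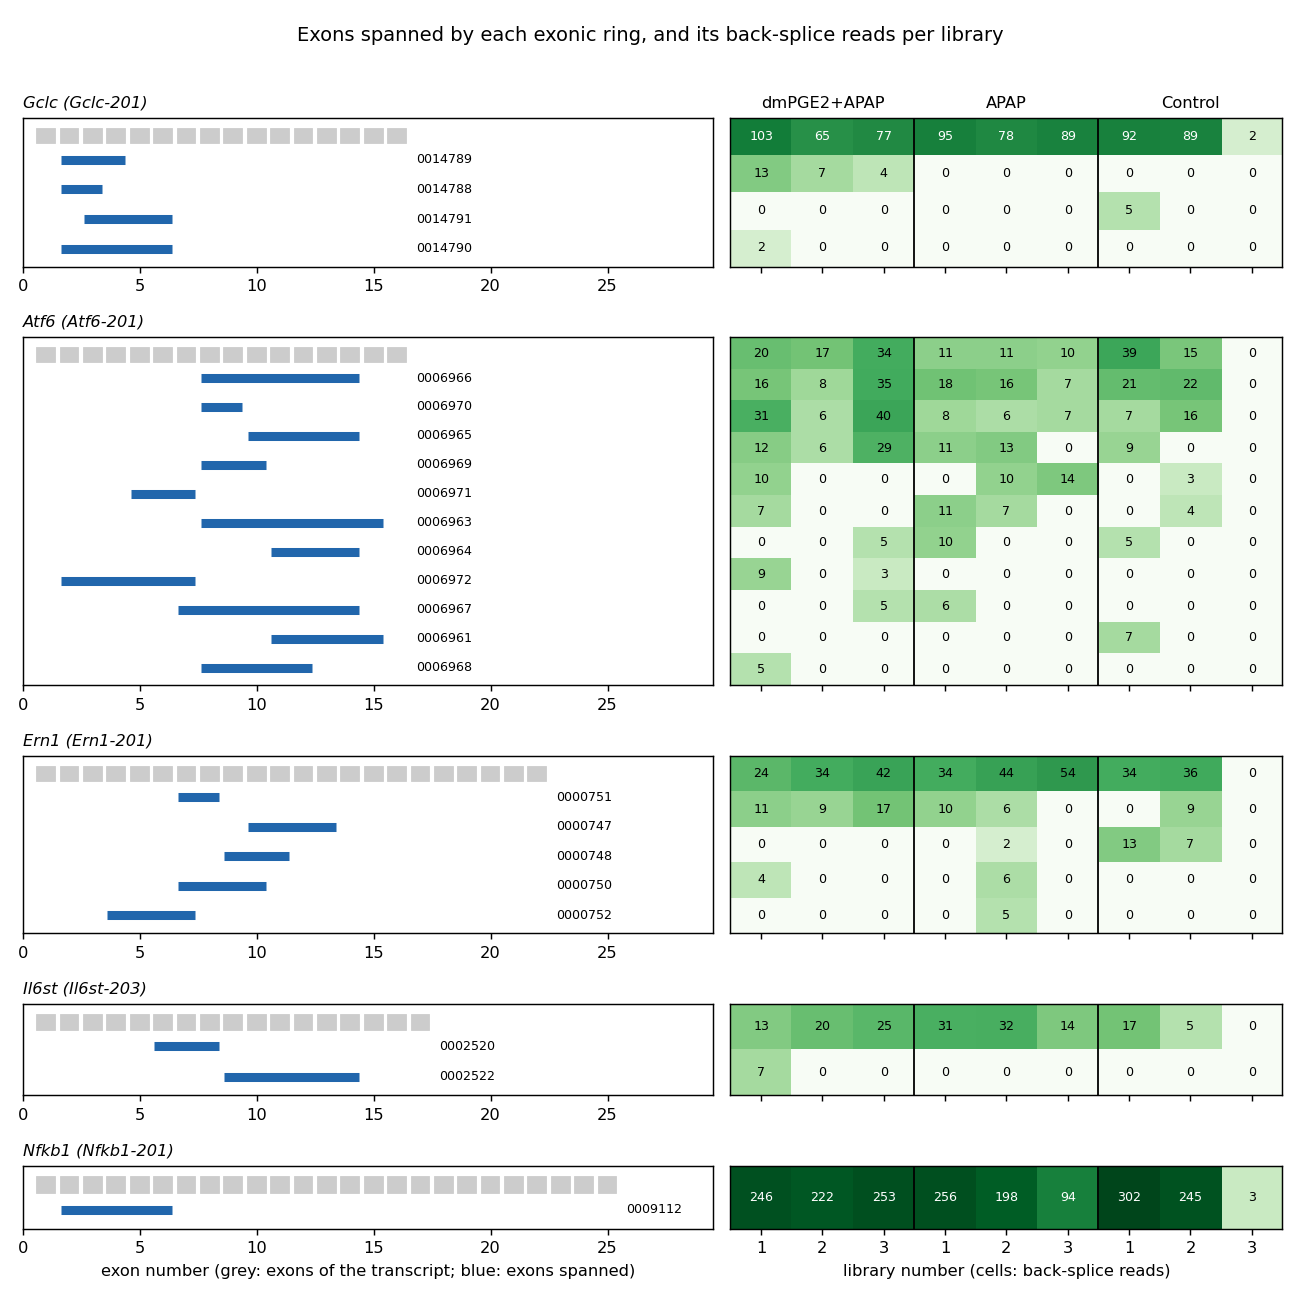
Left, the exons spanned by each exonic ring (blue) on the exons of its transcript (grey), by exon number. Right, back-splice reads per library with dmPGE2+APAP left, APAP in the middle and control right. Gclc, Il6st and Nfkb1 each have 1 ring that holds nearly all reads, whereas reads of Atf6 are spread over 11 rings that mostly begin at exon 8 or end at exon 14.

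Of the sensors of endoplasmic reticulum stress, Atf6 had the most rings and no dominant one. Its reads numbered 110, 37 and 151 in dmPGE2+APAP livers, 75, 63 and 38 in APAP livers and 88, 60 and 0 in control livers. Both the highest and the lowest of the 6 livers given APAP were in the dmPGE2+APAP group, at 1315 and 373.4 CPM, and the group's 867 ± 473 CPM spanned the APAP group's 605 ± 75.2 CPM. Controls averaged 344 ± 303 CPM, or 516 ± 76.5 CPM without control 3. At the share that controls 1 and 2 give, control 3 would hold 2.27 Atf6 reads, so its 0 lies next to the smallest count recorded. The log2 difference for dmPGE2+APAP against control was 0.95 ± 0.46, with an unadjusted p of 0.0388 and an edgeR adjusted p of 1.00. Without control 3 it was 0.72 ± 0.38, with an unadjusted p of 0.068 in edgeR. The difference was 0.41 ± 0.46 for APAP against control, or 0.18 ± 0.38 without control 3 (edgeR adjusted p = 1.00 and 0.999), and 0.55 ± 0.43 for dmPGE2+APAP against APAP (edgeR adjusted p = 1.00).

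The 11 Atf6 rings were built from few splice sites: 5 began at exon 8 and 4 ended at exon 14 of the 16-exon transcript. The most abundant, exons 8 to 14, held 25.2% of the gene's reads, with 20, 17 and 34 reads in dmPGE2+APAP livers, 11, 11 and 10 in APAP livers and 39, 15 and 0 in control livers. It was 165.9 to 296.2 CPM in dmPGE2+APAP livers, above every APAP library at 100.5 to 144.4 CPM, while control 1, at 252.5 CPM, lay within the dmPGE2+APAP range and control 2, at 115.4 CPM, within the APAP range. Its log2 difference for dmPGE2+APAP against APAP was 0.95 ± 0.82 (edgeR adjusted p = 1.00). The exons 10 to 14 ring, which shares the exon 14 donor, had 31, 6 and 40 reads in dmPGE2+APAP livers, 8, 6 and 7 in APAP livers and 7, 16 and 0 in control livers. Of its dmPGE2+APAP libraries, 2 stood above every other liver and 1 among them, and the log2 difference from APAP was 1.63 ± 0.99 (edgeR adjusted p = 1.00). In DESeq2 this was the single ring with an unadjusted p under 0.05 for dmPGE2+APAP against APAP.

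The exons 8 to 9 ring of Atf6 had 16, 8 and 35 reads in dmPGE2+APAP livers, 18, 16 and 7 in APAP livers and 21, 22 and 0 in control livers, with groups that overlap. The exons 8 to 10 ring had 12, 6 and 29 reads in dmPGE2+APAP livers, 11, 13 and 0 in APAP livers and 9, 0 and 0 in control livers. Its dmPGE2+APAP libraries all lay above the controls, at 60.54 CPM or more against 58.27 CPM or less, and the log2 difference of 2.31 ± 1.53 (2.12 ± 1.60 without control 3) did not pass (edgeR adjusted p = 1.00). Within the dmPGE2+APAP group, all 4 rings had their most reads in library 3 and their fewest in library 2, which also had the fewest back-splice reads in total. In CPM the exons 8 to 14 ring was instead lowest in library 1, at 165.9 against 171.5 in library 2, and the others stayed lowest in library 2. The other 7 Atf6 rings had reads in at most 4 libraries, with 14 reads at the most in any of them.

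Ern1 gave 39, 43 and 59 reads in dmPGE2+APAP livers, 44, 63 and 54 in APAP livers and 47, 62 and 0 in control livers. The mean levels were 424 ± 95.6 CPM in dmPGE2+APAP livers, 587 ± 188 CPM in APAP livers and 260 ± 242 CPM in control livers, or 391 ± 122 CPM in controls 1 and 2. The 3 groups overlapped, and the log2 difference for APAP against control was 0.74 ± 0.54, or 0.52 ± 0.42 without control 3 (edgeR adjusted p = 1.00 and 0.999). For dmPGE2+APAP it was −0.43 ± 0.51 from APAP and 0.31 ± 0.54 from control, or 0.09 ± 0.42 from control without control 3 (edgeR adjusted p = 1.00 for each). Exons 7 to 8 made the main ring, with 73.5% of the reads. This ring had 24, 34 and 42 reads in dmPGE2+APAP livers, 34, 44 and 54 in APAP livers and 34, 36 and 0 in control livers. APAP libraries, at 312.9 to 779.6 CPM, all lay above the controls, at 0 to 277 CPM, and the log2 difference of 1.09 ± 0.58 had an unadjusted p of 0.0607 and an edgeR adjusted p of 0.801. Without control 3 it was 0.87 ± 0.45 (edgeR adjusted p = 0.841).

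The exons 10 to 13 ring of Ern1 had 11, 9 and 17 reads in dmPGE2+APAP livers, 10, 6 and 0 in APAP livers and 0, 9 and 0 in control livers. Its dmPGE2+APAP libraries lay above every control library, with a log2 difference of 1.90 ± 1.83, or 1.64 ± 1.94 without control 3 (edgeR adjusted p = 1.00). An exons 9 to 11 ring went the other way, with 0 reads in all 3 dmPGE2+APAP livers, 0, 2 and 0 in APAP livers and 13, 7 and 0 in control livers, too few to be tested. An exons 7 to 10 ring had 4 reads in dmPGE2+APAP 1 and 6 in APAP 2, and none in the other libraries. An intronic ring of Ern1 had 10 reads in control 2 alone, and its end did not lie at an exon edge.

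For inflammation, the receptor subunit Il6st gave 20, 20 and 25 reads in dmPGE2+APAP livers, 31, 32 and 14 in APAP livers and 17, 5 and 0 in control livers. This was 195 ± 26.6 CPM in dmPGE2+APAP livers, 260 ± 50.2 CPM in APAP livers and 49.5 ± 55.9 CPM in control livers, or 74.3 ± 50.6 CPM without control 3. In CPM, all 6 livers given APAP lay above all controls, also with control 3 left out. The log2 difference for APAP against control was the largest of the 6 hosts at 1.89 ± 0.94 with a 95% interval of 0.05 to 3.74. Its unadjusted p was 0.0452 and its edgeR adjusted p 0.869, and without control 3 the difference was 1.74 ± 0.83 (edgeR adjusted p = 0.909). For dmPGE2+APAP against control it was 1.49 ± 0.93, or 1.33 ± 0.82 without control 3 (edgeR adjusted p = 1.00), and for dmPGE2+APAP against APAP −0.40 ± 0.83 (edgeR adjusted p = 1.00).

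The Il6st reads came from 1 ring of exons 6 to 8 (476 bases, 95.7% of the reads) and, in dmPGE2+APAP 1 alone, from 7 reads of an exons 9 to 14 ring. The exons 6 to 8 ring had 13, 20 and 25 reads in dmPGE2+APAP livers, 31, 32 and 14 in APAP livers and 17, 5 and 0 in control livers. As a single ring it reached 202.1 to 292.4 CPM in APAP livers, above 0 to 110.1 CPM in control livers, with a log2 difference of 1.88 ± 0.87, an unadjusted p of 0.0305 and an edgeR adjusted p of 0.801. Without control 3 it was 1.70 ± 0.75 (edgeR adjusted p = 0.841). In dmPGE2+APAP livers 1 library, at 107.9 CPM, lay within the control range. With all 9 libraries, the exons 6 to 8 ring was the only one of the 14 tested rings with an unadjusted p under 0.05 in edgeR, and without control 3 the main Crp ring was another.

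Nfkb1 had a single ring, of exons 2 to 6, and the most reads of the 6 hosts. There were 246, 222 and 253 reads in dmPGE2+APAP livers, 256, 198 and 94 in APAP livers and 302, 245 and 3 in control livers. Levels averaged 2162 ± 106 CPM in dmPGE2+APAP livers, 1841 ± 500 CPM in APAP livers and 1509 ± 712 CPM in control livers, or 1920 ± 49.7 CPM without control 3. All dmPGE2+APAP libraries, from 2041 CPM, lay above all control libraries, up to 1955 CPM, while APAP libraries ranged from 1357 to 2356 CPM. The log2 differences were 0.39 ± 0.30 for dmPGE2+APAP against control, or 0.13 ± 0.21 without control 3, and 0.24 ± 0.29 for dmPGE2+APAP against APAP (edgeR adjusted p = 1.00 for each). For APAP against control the sign depended on control 3, at 0.15 ± 0.30 with it and −0.10 ± 0.21 without it (edgeR adjusted p = 1.00 and 0.999). On the transcript used, exons 2 to 6 sum to 326 bases, of which 76.4% are coding and the rest precede the start codon. The submitters list 6 exons of 395 bases for this ring, so the coding share may not describe the ring as they list it.

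Crp was the only one of the 6 whose APAP libraries all lay below the controls. Reads numbered 131, 131 and 124 in dmPGE2+APAP livers, 91, 99 and 72 in APAP livers and 198, 192 and 7 in control livers. The levels were 1163 ± 138 CPM in dmPGE2+APAP livers, 927 ± 103 CPM in APAP livers and 1455 ± 163 CPM in control livers, or 1380 ± 138 CPM in controls 1 and 2. APAP libraries, at 837.4 to 1039 CPM, lay below every dmPGE2+APAP library, at 1080 to 1322 CPM, and below every control library, at 1282 to 1605 CPM. For APAP against control the log2 difference was −0.52 ± 0.36 (unadjusted p = 0.141, edgeR adjusted p = 0.987). Without control 3 it was −0.63 ± 0.25 (unadjusted p = 0.0162, edgeR adjusted p = 0.831). For dmPGE2+APAP the log2 difference was 0.35 ± 0.34 from APAP and −0.17 ± 0.35 from control, or −0.28 ± 0.25 without control 3 (edgeR adjusted p = 1.00 for each). The summed hepatocyte marker rings were also lowest in the APAP group, as given above, and their part in the Crp values was not tested.

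The 4 Crp rings do not come from the gene's coding exons. All were intronic, with neither end at an annotated exon edge, and lay 74988 to 100299 bases past the end of the coding transcript Crp-201. They fall in intron 1 of Crp-202, a non-coding transcript of 2 exons that runs over 134976 bases, and at least 27906 bases from its nearest exon. The main ring, novel_circ_0006986, lay at chr1:172774950-172776770 on the plus strand, held 91.9% of the reads and ranked 137 of all circRNAs. It had 114, 110 and 117 reads in dmPGE2+APAP livers, 84, 90 and 72 in APAP livers and 186, 180 and 7 in control livers. At 945.8 to 1110 CPM in dmPGE2+APAP livers and 773 to 1039 CPM in APAP livers, it was below the 1204 to 1605 CPM of the control livers. Its log2 difference was −0.48 ± 0.40 for APAP against control, and −0.66 ± 0.26 without control 3 (edgeR adjusted p = 1.00 and 0.841). The unadjusted p without control 3 was 0.0135 in edgeR. A ring that shares its end, novel_circ_0006989, had 2, 21 and 4 reads in dmPGE2+APAP livers, 3, 0 and 0 in APAP livers and 0 in every control library. A ring that shares its start, novel_circ_0006987, reaches over the annotated pseudogene Gm38051 and had 15, 0 and 0 reads in dmPGE2+APAP livers, 4, 9 and 0 in APAP livers and 12, 12 and 0 in control livers. The last, novel_circ_0006990, had 3 reads in dmPGE2+APAP 3.

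**Figure D3:**
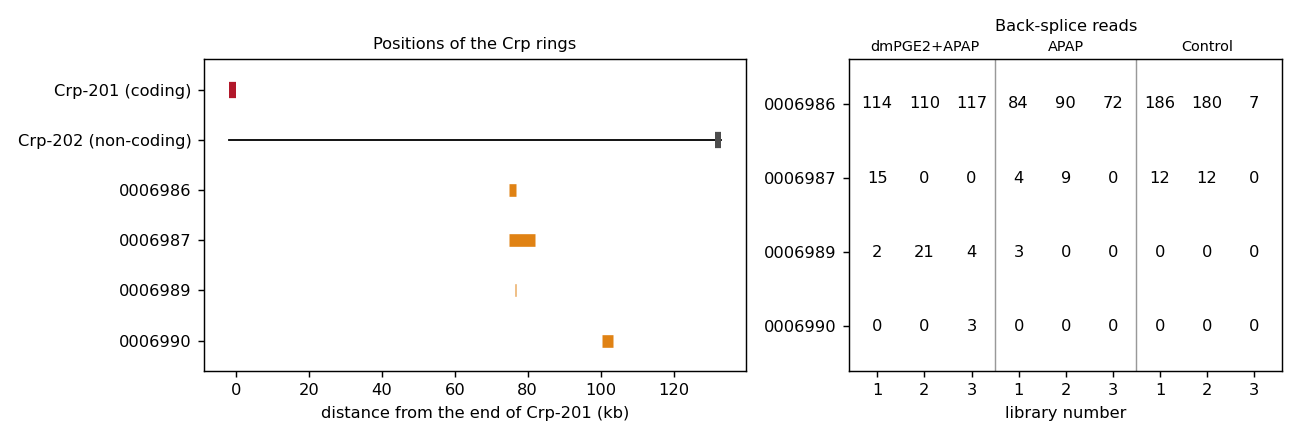
Left, the Crp transcripts and the 4 intronic rings, in kb from the end of the coding transcript Crp-201. Right, back-splice reads of each ring per library, with dmPGE2+APAP left, APAP in the middle and control right. All 4 rings lie in the long intron of the non-coding transcript, and novel_circ_0006986 carries most of the reads in every library.

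Counting the hosts whose groups do not overlap gave, for APAP against control, 2 of 6 above (Gclc and Il6st) and 1 below (Crp), against 8.1% and 2.25% of all tested hosts. For dmPGE2+APAP against APAP it gave 1 of 6 above (Crp) and 0 below, against 5.47% and 4.54%. For dmPGE2+APAP against control it gave 3 of 6 above (Gclc, Il6st and Nfkb1) and 0 below, against 8.52% and 2.8%. The same members came out without control 3, when the shares of all hosts against control were 9.71% to 10.4%. Among the 14 tested rings, 3 lay above and 1 below for APAP against control (all circRNAs 6.93% and 1.82%), 1 above and 0 below for dmPGE2+APAP against APAP (5.03% and 4.13%), and 3 above and 1 below for dmPGE2+APAP against control (8.1% and 1.73%). None of these passed the test, and the comparisons share their control or APAP libraries. The counts are for the CPM scale. Scaled per 100000 non-junction reads, as described below, the main rings of Gclc, Il6st and Ern1 overlapped between APAP livers and controls 1 and 2. The Nfkb1 ring was then at 350.3, 350.8 and 386.5 in dmPGE2+APAP livers, against 422.6 and 372.7 in controls 1 and 2, and overlapped too. The main Crp ring stayed apart, at 117.9 to 150.6 in APAP livers, 162.3 to 178.7 in dmPGE2+APAP livers and 260.3 and 273.8 in controls 1 and 2. So did the Atf6 exons 8 to 14 ring, at 26.9 to 51.9 in dmPGE2+APAP livers against 16.4 to 18.4 in APAP livers.

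**Figure D4:**
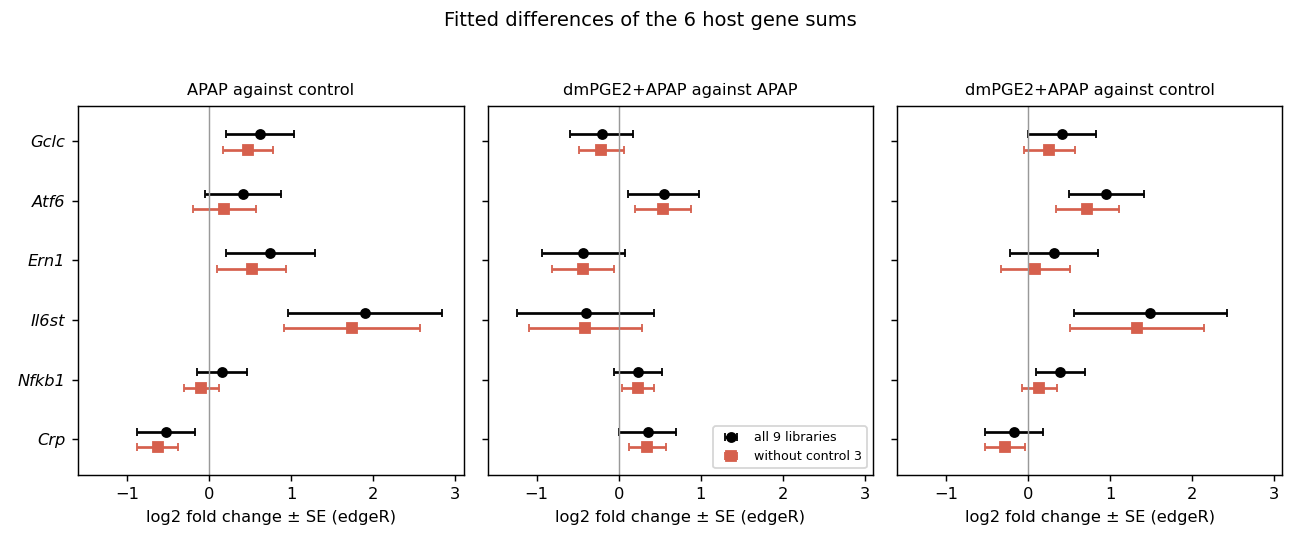
Fitted log2 fold changes with SE (edgeR) of the 6 host sums in the 3 comparisons, with all 9 libraries (black circles) and without control 3 (red squares). No point passed the test at an adjusted p of 0.05. Il6st has the largest difference for APAP against control, 1.89 ± 0.94, and Crp is below 0 there in both fits.

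For each library in which a ring had back-splice reads, the table also lists non-junction reads, those found at the ring's sites without crossing its junction. The circular share is the percent of reads at a ring's sites that cross the junction. In 1753 of 11312 circRNAs the list had been stored as 1 long number, and these were left out of the median and percentile given here. Over the other rings with at least 20 such reads, the median share was 17.9% to 20.0% in dmPGE2+APAP livers. It was 16.7% to 20.0% in APAP livers, 22.4% and 23.3% in controls 1 and 2, and 3.09% in control 3. The Nfkb1 ring stood far above this, at 78.2% to 91.7% in dmPGE2+APAP livers, 72.9% to 87.1% in APAP livers and 85.4% and 93.2% in controls 1 and 2. Control 3 was at 4.0% (3 of 75 reads, 95% Wilson interval 1.37% to 11.1%, counting error only). The main Crp ring was at 66.1% to 86.6% in dmPGE2+APAP livers, 69.2% to 83.3% in APAP livers and 76.9% and 86.1% in controls 1 and 2. Both rings lay above the 90th percentile of the rings in that median, 58.5% to 66.7%, in each of the 8 libraries other than control 3. The Ern1 exons 7 to 8 ring was intermediate, at 21.8% to 56.7% in dmPGE2+APAP livers, 32.3% to 45.4% in APAP livers and 27.9% and 40.4% in controls 1 and 2. The Atf6 exons 8 to 14 ring was at 8.99% to 21.7% in dmPGE2+APAP livers, 7.91% to 11.6% in APAP livers and 20.0% and 9.38% in controls 1 and 2. The Il6st exons 6 to 8 ring was at 9.03% to 20.2% in dmPGE2+APAP livers, 8.81% to 22.5% in APAP livers and 11.1% and 3.25% in controls 1 and 2.

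Pooled per host, the circular share of Crp averaged 49.8% ± 10.3 in dmPGE2+APAP livers and 60.9% ± 21.8 in APAP livers (SD, n = 3 each), against 75.7% ± 7.46 in controls 1 and 2. That of Il6st averaged 14.8% ± 7.4 in dmPGE2+APAP livers, 17.7% ± 7.69 in APAP livers and 7.18% ± 5.56 in controls 1 and 2. For Crp, every dmPGE2+APAP library (41.2% to 61.2%) lay below controls 1 and 2 (70.5% and 81.0%), while APAP libraries (36.1% to 77.3%) overlapped both groups. The Crp sum holds different rings in different libraries: novel_circ_0006989, at a circular share of 2.22% to 24.1%, was listed in the 3 dmPGE2+APAP libraries and 1 APAP library alone. With only the ring that had values in all libraries, Crp averaged 75.1% ± 10.5 in dmPGE2+APAP livers, 74.4% ± 7.78 in APAP livers and 81.5% ± 6.55 in controls 1 and 2, with an exact permutation p of 0.625. For Il6st the groups overlap. The sums of Ern1 (1 to 5 rings per library) and Atf6 (2 to 6) mix rings as well. With only the rings that had values in all libraries of the host, the exact permutation p was 0.854 for Ern1 and 0.725 for Atf6. The Atf6 sum also leaves out the exons 10 to 14 and exons 8 to 10 rings, whose lists had become 1 number. None of the 5 hosts with usable lists differed across the 3 groups by an exact permutation test, with p from 0.289 (Crp) to 0.914 (Atf6) and Benjamini-Hochberg values over the 5 hosts from 0.821 to 0.914. Of these tests, 4 used 8 libraries, with 560 arrangements. Nfkb1 was tested with all 9, control 3 included, and its p was 0.8, or 0.518 without control 3, by the same exact permutation test.

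At the sites of the main Gclc ring, non-junction reads differed more than back-splice reads did. Its list had been stored as 1 long number, and the first values, read as groups of 3 digits, gave 668, 553 and 770 non-junction reads in APAP livers, against 295 and 266 in controls 1 and 2. The dmPGE2+APAP values fell past the digits kept. Per 100000 non-junction reads summed over 1125 rings seen in all 8 libraries other than control 3, this was 1063 ± 176 in APAP livers (SD, n = 3) against 409 ± 5.78 in controls 1 and 2, a ratio of 2.60. Back-splice reads on the same scale were 142, 131 and 146 in APAP livers and 129 and 135 in controls 1 and 2. The circular share was 12.5%, 12.4% and 10.4% in APAP livers and 23.8% and 25.1% in controls 1 and 2. APAP libraries were above both controls in non-junction reads. For these reads the exact permutation p was 0.1 (two-sided, adjusted 0.8 over 20 ring comparisons), the smallest that 3 against 2 libraries allow. In circular share the APAP libraries were below both controls, which was not tested for Gclc. The ratios of the other 19 comparisons ran from 0.696 to 1.46, with permutation p from 0.2 to 1.

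**Figure D5:**
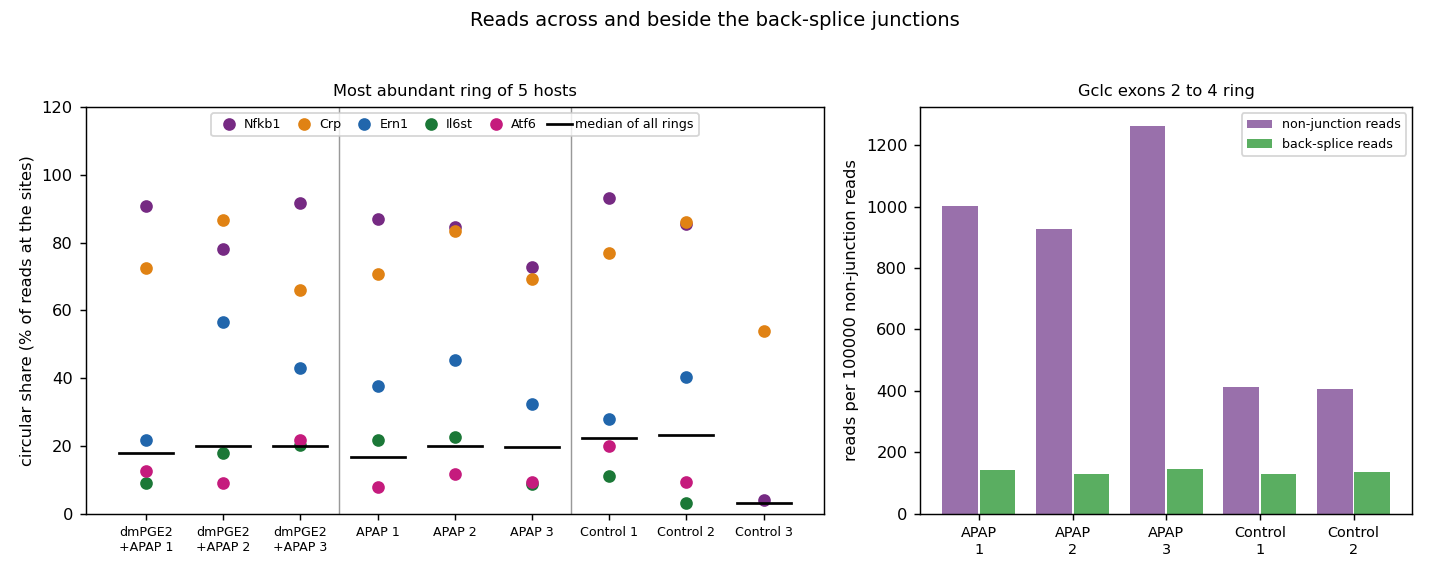
Left, the circular share (percent of reads at a ring's sites that cross the junction) of the most abundant ring of 5 hosts per library, with the median of all rings as a black bar. Right, non-junction and back-splice reads of the Gclc exons 2 to 4 ring, per 100000 non-junction reads over 1125 rings, in the 5 libraries whose values could be read. The Nfkb1 and Crp rings sit well above the median in the 8 deeper libraries, and Gclc non-junction reads are 925 to 1261 in APAP livers, against 405 and 413 in controls.

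The 6 hosts were set beside gene lists of their pathways. The lists hold the 6 hosts too, 1 for glutathione, 2 for the unfolded protein response and 3 for inflammation. Their counts and medians are therefore not independent of the 6 hosts. Of 52 genes of glutathione and NRF2 biology, 17 had rings and 10 could be tested. Of 54 genes of the unfolded protein response, 25 had rings and 17 could be tested, and of 70 genes of NF-kB, IL6 and the acute phase, 34 had rings and 16 could be tested. In each of the 3 comparisons 0 of the tested hosts passed edgeR in either direction. For APAP against control the median log2 differences were 0.43 for the glutathione list, 0.16 for the unfolded protein response and −0.06 for the inflammation list, against 0.15 over all hosts. For dmPGE2+APAP against APAP they were −0.11, 0.01 and 0.28, against 0.03 over all hosts, and for dmPGE2+APAP against control 0.20, 0.31 and 0.75, against 0.20. Without control 3 the median over all hosts moved to −0.04 for APAP against control, and those of the lists to 0.22, −0.08 and −0.34. The same medians for dmPGE2+APAP against control moved to −0.03, 0.09 and 0.50, against 0.03 over all hosts. For that comparison the median of the unfolded protein response was the value of Ern1 itself, with and without control 3.

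Within the glutathione list, Abcc2, an exporter of glutathione conjugates into bile, averaged 2546 ± 351 CPM in dmPGE2+APAP livers, 2620.5 ± 273 CPM in APAP livers and 2560.3 ± 828 CPM in control livers. Cth, the enzyme that releases cysteine from cystathionine, averaged 968 ± 256 CPM in dmPGE2+APAP livers, 966 ± 49.3 CPM in APAP livers and 961 ± 248 CPM in control livers. Bach1, a repressor of NRF2 target genes, averaged 489 ± 216 CPM in dmPGE2+APAP livers, 493 ± 104 CPM in APAP livers and 165 ± 155 CPM in control livers. In controls 1 and 2 alone Abcc2 averaged 3038 ± 52.9 CPM, Cth 1098 ± 105 CPM and Bach1 248 ± 84.9 CPM. For APAP against control the log2 difference of Abcc2 was −0.02 ± 0.27, or −0.27 ± 0.18 without control 3, and that of Cth was −0.05 ± 0.37, or −0.23 ± 0.28 without control 3. The values for dmPGE2+APAP against control were −0.03 ± 0.27, or −0.29 ± 0.18 without control 3, for Abcc2 and −0.04 ± 0.37, or −0.22 ± 0.28 without control 3, for Cth. Bach1 reached log2 differences of 1.15 ± 0.58 for dmPGE2+APAP and 1.13 ± 0.58 for APAP against control, with unadjusted p of 0.0473 and 0.0508 in edgeR that did not pass adjustment. Without control 3 these differences were 0.96 ± 0.47 and 0.95 ± 0.47. Cul3, the scaffold of the ligase that degrades NRF2, averaged 95.2 ± 54.5 CPM in dmPGE2+APAP livers, 211 ± 133 CPM in APAP livers and 55.9 ± 48.9 CPM in control livers, or 83.8 ± 9.69 CPM in controls 1 and 2.

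Within the unfolded protein response, Canx, a lectin chaperone of the endoplasmic reticulum, averaged 1303 ± 228 CPM in dmPGE2+APAP livers, 1182 ± 240 CPM in APAP livers and 1258 ± 699 CPM in control livers, or 1657 ± 137 CPM in controls 1 and 2. Its log2 difference for APAP against control was −0.27 ± 0.34, or −0.54 ± 0.24 without control 3, where the unadjusted p was 0.0334 and the edgeR adjusted p 0.909. It was −0.11 ± 0.34 for dmPGE2+APAP against control, or −0.38 ± 0.24 without control 3 (edgeR adjusted p = 1.00 for each). Creb3l2, a membrane-bound transcription factor related to ATF6, averaged 642 ± 220 CPM in dmPGE2+APAP livers, 658 ± 131 CPM in APAP livers and 1008 ± 518 CPM in control livers, or 709 ± 41.6 CPM in controls 1 and 2. Map3k5, the kinase ASK1, had log2 differences of 0.43 ± 0.44 for dmPGE2+APAP against control and 0.16 ± 0.45 for APAP against control. Without control 3 the differences were 0.18 ± 0.34 and −0.09 ± 0.34, so the sign for APAP against control depended on that library. None of these 3 hosts passed the test.

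Within the inflammation list, Chuk, the gene of the NF-kB kinase IKKα, had 97, 69 and 124 reads in dmPGE2+APAP livers, 79, 72 and 49 in APAP livers and 207, 179 and 6 in control livers. Its level was 860 ± 198 CPM in dmPGE2+APAP livers and 697 ± 35.7 CPM in APAP livers, below 1364 ± 20.9 CPM in control livers. The log2 difference for APAP against control was −0.88 ± 0.38 (unadjusted p = 0.0211, edgeR adjusted p = 0.869) and −1.01 ± 0.28 without control 3 (edgeR adjusted p = 0.123). Birc2, a ubiquitin ligase of NF-kB signalling, averaged 374 ± 324 CPM in dmPGE2+APAP livers, 494 ± 135 CPM in APAP livers and 427 ± 388 CPM in control livers. Controls 1 and 2 alone averaged 640 ± 166 CPM, above the APAP mean, and the log2 difference of Birc2 for APAP against control was −0.13 ± 0.55, or −0.41 ± 0.60 without control 3. It was −0.54 ± 0.55 for dmPGE2+APAP against control, or −0.82 ± 0.60 without control 3. Il1r1, the IL1 receptor, averaged 278 ± 62.1 CPM in dmPGE2+APAP livers, 94.7 ± 36.8 CPM in APAP livers and 97.1 ± 168 CPM in control livers, or 146 ± 206 CPM in controls 1 and 2. Its log2 difference for dmPGE2+APAP against APAP was 1.57 ± 0.92 (edgeR adjusted p = 1.00). Fn1, fibronectin, averaged 171 ± 123 CPM in dmPGE2+APAP livers, 125 ± 129 CPM in APAP livers and 128 ± 222 CPM in control livers, or 192 ± 272 CPM in controls 1 and 2. The sign of the Fn1 difference for dmPGE2+APAP against control depended on control 3, at 0.11 ± 0.99 with it and −0.17 ± 1.13 without it.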

How the data were processed

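Back-splice reads were counted in 9 mouse liver libraries. Per the labels' protocols, each started from 1 µg of total RNA, ribosomal RNA was removed and strand was marked. The deposited table gives whole-number counts per circRNA, left unscaled by the authors, and a scaled value that was not used. The submitters' processing notes name HISAT2 and GRCm38 (mm10), and the circRNA caller is not given in the sources used here. The remaining columns, coded BC without explanation in the labels, were taken as the saline controls by elimination and keep their own numbers 1 to 3.

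The 28 circRNAs, the gene lists, the marker lists and the tests were chosen with earlier results of these data known. The text names all 6 hosts, their 4 most abundant rings and any with reads in at least 6 libraries, and the 4 most abundant tested hosts of each pathway list, of which 1 is not reported here. Chuk without control 3, and rings with reads in dmPGE2+APAP livers alone, were singled out after their values were seen.

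All circRNAs (4331) and host sums (2358) with at least 5 reads in at least 3 libraries entered edgeR 4.0.16 in R 4.3.3 (quasi-likelihood F test, TMM, all 9 libraries, Benjamini-Hochberg over all features, threshold 0.05). Fold changes, SE and p-values come from it. Steps were tested on simulated data. Alternatives were DESeq2 1.42.0, limma-voom (limma 3.58.1), no TMM, no filter, only the groups compared, a replicate block and leaving out each library. CPM is reads per 1000000 back-splice reads of the library, given with SD. Adjusted p-values printed as 1.00 are rounded. The median circular share used rings with at least 20 reads at their sites. Shares pooled per host used libraries where the host's rings together held at least 20 such reads. Intervals and library depth cover counting error only. In 1753 of 11312 circRNAs (15.5%) the list of non-junction reads had become 1 number. Such lists were left out, except where stated, when their first 15 digits were read in groups of 3. In the matching lists of junction reads, 76 values read this way were compared with the count columns and 0 differed. Exons are those of GENCODE M21.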

Additional observations from a re-analysis of the deposited data

How the results depend on the processing

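Of 729 recalculations of 51 log2 differences of the 6 hosts and the 11 tested rings described above, 0 passed the threshold and 22 changed sign, in 10 differences. Of 94 recalculations of the 9 differences of the other 3 tested rings, all of Atf6, 0 passed and 8 changed sign, in 4 differences. The DESeq2 values without an adjusted p, named above, could not pass. The count of hosts, rings or listed hosts past the threshold was 0 with every alternative, and so was the count of hosts whose circular share differed. With limma-voom, APAP against control gave −0.038 for novel_circ_0006970 and 0.027 for novel_circ_0006965, and dmPGE2+APAP against APAP gave −1.07 for novel_circ_0006987. For novel_circ_0006965, APAP against control gave 0.026 with no filter and 0.090 with only the 2 groups compared. Leaving out 1 library gave, for APAP against control, −0.10 to 0.35 for Nfkb1, −0.12 to 0.51 for its ring, −0.79 to 0.32 for novel_circ_0006966, −0.20 to 0.36 for novel_circ_0006970, −0.34 to 0.88 for novel_circ_0006965 and −0.019 to 5.35 for novel_circ_0000747. For dmPGE2+APAP against APAP it gave −0.40 to 0.020 for Gclc, −0.31 to 0.70 for novel_circ_0006970 and −5.06 to 1.11 for novel_circ_0006987, and for dmPGE2+APAP against control −0.23 to 0.74 for novel_circ_0006970. The ends past 5 come from leaving a group with all its libraries at 0, where the value depends on the prior count. The cause of the other changes was not tested. The median over all hosts for APAP against control was 0.15, 0.08 without TMM and −0.04 without control 3.

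The replicate block left the count of hosts and rings called for dmPGE2+APAP against APAP at 0. Deviations of same-numbered libraries of these groups correlated at r = −0.0013, 0.0053 and 0.013, and those of different-numbered libraries at −0.026 to 0.021. Counting noise in hosts with few reads can hold r near 0 in paired libraries too. The check therefore cannot decide whether the numbers pair the samples. No paired analysis was possible because the control columns carry no number of the sample titles, for the comparisons with control. Depth in back-splice reads limits every ring with a few reads, above all in control 3. Non-junction reads of control 3 were not low at the Nfkb1 ring, at 72 against 22 to 62 in the other libraries. Its median circular share, over the rings used for that median above, was 3.09%, and the cause was not tested.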
